A study of Homo sapiens with 33 samples.

Results

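Sibjeondaebo-tang is a traditional tonic decoction that joins the herbs of Palmul-tang with astragalus root and cinnamon bark. Its 70% ethanol extract, at the medium dose of 100 µg/mL, was compared with vehicle in HT29 cells, an established human colorectal adenocarcinoma line, by RNA sequencing 24 h after treatment. The 6 libraries, 3 labelled as ethanol extract of Sibjeondaebo-tang at the medium dose and 3 labelled as vehicle, were chosen by those labels from the 33 libraries of the series. The same extract at 20 µg/mL (low dose) and 500 µg/mL (high dose) and the ethanol extract of Palmul-tang at 100 µg/mL, 3 libraries each, gave further comparisons. Vehicle is 0.1% DMSO in the sample labels, while the series text gives 2%, and the labels do not say how much DMSO the extract-treated wells held. HT29 is a single cancer line, so every group shares its genotype.

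Total counts were 37970712, 38253184 and 45031593 in the medium-dose libraries and 31784897, 35626397 and 31071786 in vehicle. The labels do not call the replicates separate cultures, so the p-values cover the spread among these libraries only, and that spread may be technical. By their titles all libraries belong to batch E. Extract and vehicle carry different code prefixes, however, and whatever those prefixes stand for cannot be told apart from the treatment. Each of the 16 colorectal epithelial markers, among them EPCAM and CDH1, was detected, with a summed level of 13900 to 14500 CPM (counts scaled to library size) at the medium dose and 13400 to 13900 CPM in vehicle. Summed markers of T cells stayed at or below 0.879 CPM at the medium dose and 1.02 CPM in vehicle. The macrophage list summed to 1400 to 1510 CPM at the medium dose and 1380 to 1440 CPM in vehicle, with its defining genes CD163, C1QA, C1QB and TYROBP at 0 in both groups. Nearly all of this sum was LYZ, with 1390, 1500 and 1460 CPM at the medium dose and 1430, 1370 and 1390 CPM in vehicle.

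Cells meet electrophilic and oxidizing compounds, which plant extracts often hold, with the transcription factor NRF2 (gene NFE2L2). NRF2 is normally degraded through its partner KEAP1, and when that is blocked it binds antioxidant response elements before genes for quinone reduction, glutathione and thioredoxin supply, NADPH production and drug efflux. In the gut, plant compounds are also sensed by the aryl hydrocarbon receptor, which induces CYP1 enzymes. The colonic epithelium that HT29 models is further known for Wnt signalling, which keeps crypt cells dividing, and for the mucins that its secretory and absorptive cells place on their surface.

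At the medium dose many genes moved by small amounts. Each library is a bulk sample, in which fewer cells of a type and less RNA per cell cannot be told apart. Of 17432 genes tested, edgeR's quasi-likelihood test called 2447 higher (14.0%) and 2091 lower (12.0%) than in vehicle, at an adjusted p under 0.05. The median absolute change of the called genes was 0.24 on the log2 scale, or 1.18-fold, and 37 genes rose and 77 fell by at least 1 on that scale. Levels of all 3 medium-dose libraries lay above all vehicle libraries for 3452 genes and below them for 3248. Leaving out replicate 3 of the medium dose gave 2886 calls in all and leaving out replicate 3 of vehicle 2988, against 4538 with all 6 libraries. These 2 libraries also lay farthest apart in the share of counts from mitochondrially encoded genes, described further on.

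The direction of the calls went with gene length and base composition. Among protein-coding genes, the 2656 with the shortest exons (up to 2820 bases) had 23.5% called higher and 7.53% lower, and the 2653 with the longest exons (8180 bases or more) had 9.23% higher and 21.6% lower. By GC content, the 2650 genes at the high end had 26.0% called higher and 8.79% lower, and the 2656 at the low end 8.92% higher and 17.6% lower. By average level, the upper 3 of 5 bins of protein-coding genes (average log2 CPM of 4.09 or more) had 22.4 to 23.4% called higher and 13.8 to 20.7% lower, and the lowest bin 3.13% higher and 3.35% lower. Long intergenic noncoding RNAs were called higher in 2.6% and lower in 6.38% of 846 genes. With trends along GC content and length removed from each library, 2401 genes were called higher and 2121 lower, 3786 of them among the 4538 calls made without that step. Of 154 calls of single genes checked over all comparisons, 2 were lost with these trends removed, those of RPS24 and ZNG1F against vehicle. The part of length and composition in the size of single changes was not tested. Counts with these trends removed are given for lists in which the number higher or lower moved by 2 or more, and for cytosolic ribosomal proteins.

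**Figure D1:**
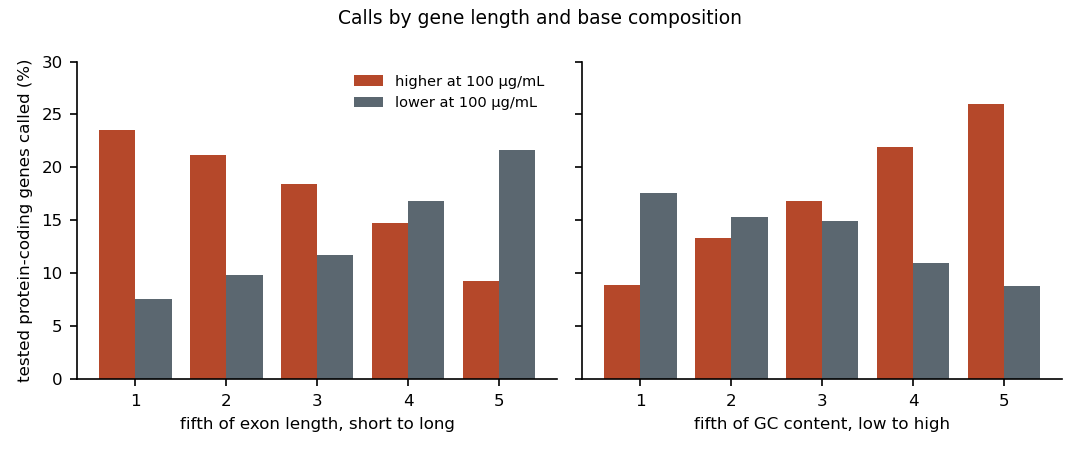
Share of tested protein-coding genes called higher (red) or lower (grey) at 100 µg/mL than in vehicle, in 5 equal bins of exon length (left, short to long) and of GC content (right, low to high). The share called higher is 23.5% in the bin of shortest and 9.23% in that of longest exons, and 8.92% in the bin of lowest and 26.0% in that of highest GC content.

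Genes of the NRF2 response rose in part. Of the 34 genes on the list, all of which passed the filter on low counts, 17 were called higher and 1 lower, beside 14.0% and 12.0% of all genes and 22.4 to 23.4% and 13.8 to 20.7% of protein-coding genes in the upper 3 level bins. The median change was 0.18 on the log2 scale, against -0.005 over all genes. The numbers were 13 and 1 without replicate 3 of vehicle. The genes named below are the 5 with the smallest p and, chosen after their values were seen, others that show the roles of the list.

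Each of 3 members called higher is shown with the 250 bases before its RefSeq start site (GRCh38.p14), since they carry the core letters of an antioxidant response element. The letters searched were TGACNNNGC, on both strands, and matches are in capitals, written as they read on the strand printed.
GCLM, chr1:93909431-93909680, minus strand: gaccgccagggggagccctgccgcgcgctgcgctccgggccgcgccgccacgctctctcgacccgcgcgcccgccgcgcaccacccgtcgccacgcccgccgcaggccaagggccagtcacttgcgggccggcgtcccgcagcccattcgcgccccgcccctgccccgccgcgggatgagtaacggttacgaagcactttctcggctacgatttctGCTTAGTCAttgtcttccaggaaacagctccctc
ME1, chr6:83431052-83431301, minus strand: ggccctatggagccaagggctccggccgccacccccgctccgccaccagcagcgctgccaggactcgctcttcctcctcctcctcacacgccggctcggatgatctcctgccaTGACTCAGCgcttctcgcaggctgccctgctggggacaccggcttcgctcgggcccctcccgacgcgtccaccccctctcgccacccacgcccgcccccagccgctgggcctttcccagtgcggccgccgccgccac
TXNRD1, chr12:104286782-104287031, plus strand: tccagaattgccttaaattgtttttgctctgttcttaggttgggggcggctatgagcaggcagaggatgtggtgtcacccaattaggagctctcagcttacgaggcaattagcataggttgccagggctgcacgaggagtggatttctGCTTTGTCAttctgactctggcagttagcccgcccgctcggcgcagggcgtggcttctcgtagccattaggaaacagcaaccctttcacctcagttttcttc

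In windows from 250 bases before to 50 after the start, 8 of the 29 windows that RefSeq gives for 22 NRF2 list genes held a match, against 13.3% of all 35116 windows. Among list genes called higher, 5 of 10 held a match (GCLM, ME1, TXNRD1, CBR1 and PIR), and among those not called 2 of 12. Where a match is counted from the start site, that of GCLM begins at -34 and that of TXNRD1 at -102. A match is only a run of letters and was not examined for binding.

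The reductases and dehydrogenases that detoxify carbonyls and quinones led the list. AKR1B10, an aldo-keto reductase (ENSG00000198074, chromosome 7, 134527592 to 134541408, GRCh38 coordinates from GENCODE 29, as for all genes below), had 131, 125 and 122 CPM in medium-dose libraries, against 105, 98.3 and 92.3 CPM in vehicle. All medium-dose libraries lay above all vehicle libraries, and the log2 change was 0.35 ± 0.05 (SE; adjusted p = 2.66e-05). NQO1, the quinone reductase (ENSG00000181019, chromosome 16, 69706996 to 69726951), had 571, 577 and 601 CPM at the medium dose and 499, 468 and 441 CPM in vehicle, again without overlap (0.31 ± 0.047, adjusted p = 4.79e-05). ALDH3A1, an aldehyde dehydrogenase, had 33.8, 32.8 and 32.9 CPM with extract and 27.4, 27.2 and 28.4 CPM with vehicle (0.26 ± 0.049). The carbonyl reductase gene CBR1 rose by 0.21 ± 0.049. AKR1C3, which makes and breaks down steroids and prostaglandins, rose by 0.50 ± 0.13, whereas its neighbours AKR1C1 (0.03 ± 0.082, adjusted p = 0.858) and AKR1C2 (0.19 ± 0.08, adjusted p = 0.0878) did not pass the test. The AKR1C genes are near-identical, and reads can be assigned to the wrong one.

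Several genes of thiol and peroxide metabolism rose as well. SRXN1, which reactivates oxidized peroxiredoxins, had 74.1, 68.7 and 73.7 CPM at the medium dose, against 64.3, 60.9 and 53 CPM in vehicle (0.28 ± 0.057, adjusted p = 0.0008). PRDX1, a peroxiredoxin, had 505, 539 and 535 CPM at the medium dose and 452, 408 and 344 CPM in vehicle (0.39 ± 0.084), with the lowest value in replicate 3 of vehicle. TXNRD1, the cytosolic thioredoxin reductase, had 397, 366 and 383 CPM at the medium dose and 341, 328 and 278 CPM in vehicle (0.27 ± 0.069, adjusted p = 0.00441). Its call was lost without replicate 3 of vehicle (0.19, adjusted p = 0.0546). GCLM, the modifier subunit of glutamate-cysteine ligase, the first enzyme of glutathione synthesis, had 72.5, 71.7 and 75.5 CPM with extract and 65.2, 67.2 and 58.8 CPM with vehicle (0.20 ± 0.046). Its catalytic partner GCLC had 97.6, 95.9 and 93.9 CPM with extract and 102, 106 and 89.6 CPM with vehicle, overlapping groups with a change of -0.05 ± 0.047 that was not called. The cystine transporter SLC7A11 was likewise not called (-0.02 ± 0.042).

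For NADPH supply, ME1, the cytosolic malic enzyme, had 103, 105 and 106 CPM at the medium dose and 94.8, 92.9 and 89.3 CPM in vehicle (0.19 ± 0.035, adjusted p = 0.0004). HMOX1, the enzyme that breaks down heme, had 13.6, 12.6 and 13.3 CPM at the medium dose and 10.8, 11.6 and 11.3 CPM in vehicle (0.23 ± 0.065, adjusted p = 0.00988). The ferritin heavy chain gene FTH1, which stores iron, was the member that fell, with 4650, 4780 and 4670 CPM at the medium dose and 5570, 5360 and 5660 CPM in vehicle (-0.23 ± 0.048, adjusted p = 0.000803). Its partner FTL showed 0.01 ± 0.068 and was not called. The gene of NRF2 itself, NFE2L2, which is counted on the aryl hydrocarbon receptor list below, was lower, with 127, 124 and 119 CPM in medium-dose libraries and 147, 145 and 145 CPM in vehicle (-0.24 ± 0.045, adjusted p = 0.000398).

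**Figure D2:**
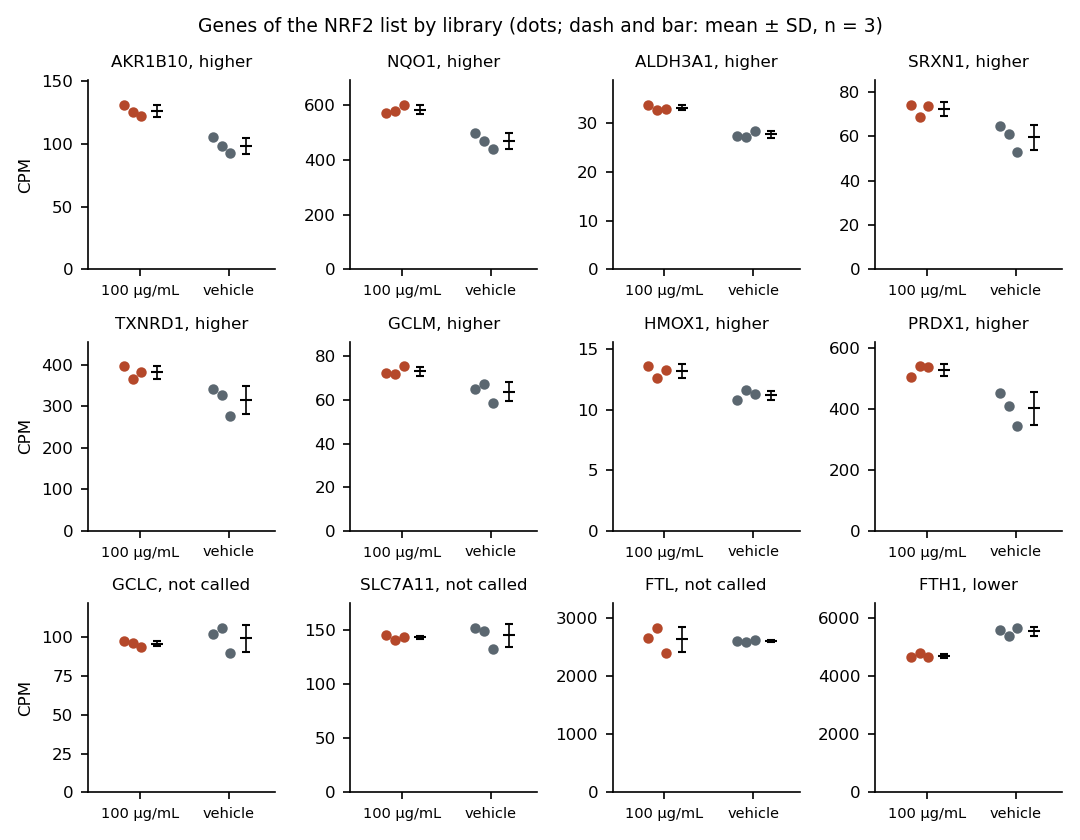
CPM per library (dots) with mean ± SD (n = 3 each) for 12 genes of the NRF2 list, 100 µg/mL extract on the left and vehicle on the right of each panel, with the call beside the gene name. In the panels of AKR1B10, NQO1, ALDH3A1 and SRXN1 all medium-dose dots lie above all vehicle dots, GCLC, SLC7A11 and FTL overlap, and FTH1 lies lower at the medium dose.

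Genes known to be induced by the aryl hydrocarbon receptor moved in both directions. Of 11 tested members 3 were higher and 5 lower (median -0.16), beside 22.4 to 23.4% and 13.8 to 20.7% in the upper 3 level bins. The rises were NQO1 and ALDH3A1, which also stand on the NRF2 list, and UGT1A6 (0.16 ± 0.056, adjusted p = 0.0351), whose call was lost when replicate 1, 2 or 3 of the medium dose or replicate 2 or 3 of vehicle was left out (adjusted p = 0.0552 to 0.153). AHRR, the receptor's repressor, had 5.82, 4.89 and 5.69 CPM at the medium dose and 6.78, 7.04 and 6.88 CPM in vehicle (-0.33 ± 0.093, adjusted p = 0.00943, and 0.0595 without replicate 2 of the medium dose). CYP1B1 had 47.8, 52.8 and 50.8 CPM at the medium dose and 86.2, 53.6 and 53.4 CPM in vehicle, so that 1 vehicle library set the difference, and without it the change was -0.08 (adjusted p = 0.226). Among genes of drug efflux and conjugation 6 of 22 rose and 2 fell (1 fell without replicate 3 of vehicle), shares near or below those of the upper level bins. When any 1 library was left out 4 or 5 rose. The efflux pump gene ABCG2 rose by 0.24 ± 0.038 and the intestinal glucuronosyltransferase UGT1A10 by 0.21 ± 0.031, while the cytochrome P450 gene CYP3A5 had 89.3, 88 and 87 CPM at the medium dose and 106, 108 and 102 CPM in vehicle (-0.26 ± 0.036, adjusted p = 2.1e-05). The UGT1A genes share exons, which reads cannot separate.

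The genes of the mitochondrial chromosome and the nuclear genes of the same respiratory complexes went opposite ways. Of the 13 mitochondrially encoded genes, 11 were called lower and 0 higher (median -0.50), and of 44 nuclear genes of oxidative phosphorylation 28 were called higher and 1 lower (median 0.25). Both lists stand beside 22.4 to 23.4% called higher and 13.8 to 20.7% called lower in the upper 3 level bins. The mitochondrially encoded genes together took 6.41, 7.21 and 5.50% of counts at the medium dose, against 7.43, 8.48 and 9.80% in vehicle. The groups did not overlap, with a difference of -2.2 percentage points (exact permutation test, two-sided, p = 0.1, the smallest value that 3 against 3 libraries allow). Over all 30 extract libraries of the series the share ran from 4.65 to 7.53%, with a median of 6.28%.

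MT-CO2, subunit 2 of cytochrome c oxidase (chromosome M, 7586 to 8269), had 6500, 7300 and 5090 CPM in the medium-dose libraries, against 8660, 9930 and 11200 CPM in vehicle (-0.66 ± 0.14, adjusted p = 0.000928). MT-ND4, of complex I, had 7390, 8210 and 5810 CPM at the medium dose and 8670, 10900 and 12600 CPM in vehicle (-0.59 ± 0.14, adjusted p = 0.003). MT-ND6, the complex I gene read from the other strand, had 250, 334 and 190 CPM with extract and 373, 415 and 536 CPM with vehicle (-0.77 ± 0.20). In each of these genes replicate 3 of the medium dose was the lowest library and replicate 3 of vehicle the highest. Without replicate 3 of the medium dose 3 of 13 genes were called lower, MT-CO2, MT-ND4 and MT-ATP6, and without replicate 3 of vehicle 4 of 13, these and MT-ND6. Over the 13 genes the changes ran from -0.90 for MT-ATP8, which also lost its call without replicate 2 of vehicle (adjusted p = 0.0529), to -0.19 for MT-ND4L, which was not called. MT-ND1 was not called either (-0.44 ± 0.17, adjusted p = 0.053).

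**Figure D3:**
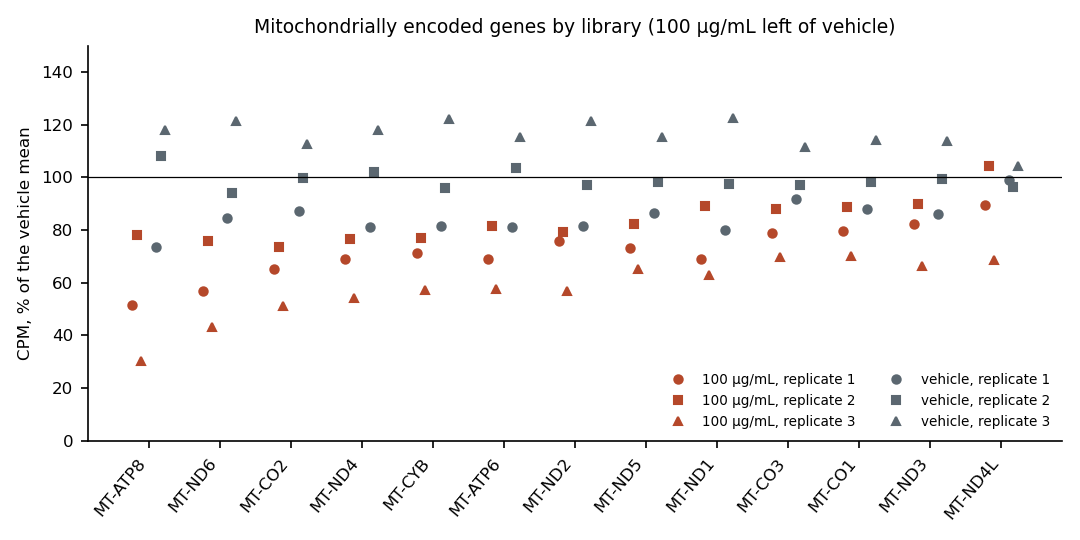
CPM of each mitochondrially encoded gene per library as a percentage of the vehicle mean, sorted by log2 change, with 100 µg/mL (red) left of vehicle (grey) and the replicate number given by the symbol. Replicate 3 (triangles) is the lowest medium-dose library for each gene and the highest vehicle library for each gene.

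Nuclear genes of several respiratory complexes were among the rises. ATP5F1B, the catalytic beta subunit of ATP synthase, had 567, 557 and 578 CPM at the medium dose and 496, 462 and 414 CPM in vehicle (0.31 ± 0.051, adjusted p = 0.00011). NDUFA13 of complex I (0.41 ± 0.071), SDHA of complex II (0.22 ± 0.041), NDUFA4, which is bound to cytochrome c oxidase (0.40 ± 0.075), and ATP5MC1 of ATP synthase (0.32 ± 0.058) rose as well. The member that fell was ATP5PF, a stalk subunit of ATP synthase, with 47.9, 50.6 and 50.7 CPM at the medium dose and 55.2, 58.6 and 63.5 CPM in vehicle (-0.25 ± 0.074), a call lost without replicate 1 of the medium dose (adjusted p = 0.0537) or replicate 3 of vehicle (adjusted p = 0.0941). Factors that copy and transcribe the mitochondrial chromosome rose in 8 of 22 members, with 0 lower, beside 22.4 to 23.4% called higher in the upper 3 level bins. The DNA polymerase gene POLG had 91, 88.3 and 91.3 CPM at the medium dose and 73.9, 70.9 and 67.5 CPM in vehicle (0.35 ± 0.047, adjusted p = 1.34e-05), and the RNA polymerase gene POLRMT rose by 0.29 ± 0.06. ESRRA, a nuclear receptor of mitochondrial gene expression, rose by 0.43 ± 0.092. This count was 5 of 22 when replicate 1 or 3 of the medium dose or replicate 3 of vehicle was left out.

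Genes of the protein synthesis machinery were also among the rises. For comparison, 22.4 to 23.4% were called higher in the upper 3 level bins and 23.5% in the bin of shortest exons. Of 36 cytosolic ribosomal protein genes, 23 rose and 1 fell (median 0.21), and of 26 mitochondrial ones 12 rose and 0 fell (median 0.15). RPS19, of the small subunit, had 898, 913 and 1010 CPM at the medium dose, against 736, 670 and 593 CPM in vehicle (0.50 ± 0.087, adjusted p = 0.000222). RPL7A, of the large subunit, had 1050, 1050 and 1040 CPM at the medium dose and 874, 789 and 699 CPM in vehicle (0.41 ± 0.066, adjusted p = 8.85e-05). In both genes vehicle replicate 3 was the lowest of all 6 libraries. RPS14 (0.50 ± 0.089) and the mitochondrial MRPS12 (0.47 ± 0.089) rose too. RPS24 was the member that fell (-0.24 ± 0.088, adjusted p = 0.0429), a call lost without replicate 1 or 3 of the medium dose or without any 1 of the vehicle libraries, with adjusted p from 0.0549 to 0.201. With GC and length trends removed 22 cytosolic genes were called higher and 0 lower (median 0.17), and 11 mitochondrial genes higher and 3 lower (median 0.09). Ribosomal protein genes have many processed pseudogenes, with which reads may be shared.

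Host genes of small nucleolar RNAs, whose spliced transcripts carry terminal oligopyrimidine starts like those of ribosomal proteins, rose in 10 of 16 members and fell in 1. Over all genes 14.0% were called higher and 12.0% lower. SNHG12 had 24.6, 24.7 and 26.6 CPM at the medium dose and 19, 18.5 and 15.9 CPM in vehicle (0.51 ± 0.073, adjusted p = 3.01e-05), and GAS5 had 122, 125 and 131 CPM at the medium dose and 105, 97.1 and 85.4 CPM in vehicle (0.40 ± 0.067). Leaving out replicate 3 of vehicle gave 6 rises. Of the genes that build ribosomes 6 of 28 were higher and 3 lower, shares near or below those of the upper level bins (3 higher without replicate 3 of vehicle, 1 lower without the filter on low counts). NOP56, of the box C/D particle, rose by 0.25 ± 0.042 and BOP1, of large subunit maturation, by 0.34 ± 0.068, while MYC, the transcription factor that drives many of them, had 279, 275 and 274 CPM at the medium dose and 309, 311 and 312 CPM in vehicle (-0.17 ± 0.046, adjusted p = 0.00731).

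Subunits of the proteasome, which degrades tagged proteins, were called higher in 21 of 32 members and lower in 0 (median 0.23), but in 11 without replicate 3 of vehicle. The share called higher in the upper 3 level bins was 22.4 to 23.4%. PSMC3, an ATPase of its cap, had 146, 143 and 145 CPM at the medium dose and 117, 116 and 109 CPM in vehicle (0.35 ± 0.051, adjusted p = 4.19e-05). PSMB5, the chymotrypsin-like catalytic subunit, had 81.1, 79.9 and 88.2 CPM at the medium dose and 67.7, 62.3 and 54.7 CPM in vehicle (0.43 ± 0.074). Both genes separated the groups. Chaperones were mixed: of 20 cytosolic heat shock genes 5 rose and 2 fell, the small heat shock protein gene HSPB1 (-0.36 ± 0.084) and its partner in chaperoned autophagy BAG3 (-0.29 ± 0.072). Of 22 genes of the unfolded protein response 5 rose, led by MANF (0.17 ± 0.04) and SDF2L1 (0.54 ± 0.13), and 2 fell (0 without the filter on low counts). The shares of both lists lie near or below those of the upper level bins. With GC and length trends removed 4 heat shock genes fell. When replicate 3 of vehicle was left out 3 heat shock genes rose, and in the unfolded protein response 2 rose and 1 fell. Without replicate 3 of the medium dose 3 genes of that response rose and 0 fell, and without replicate 1 or 2 of vehicle 1 fell.

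Most genes of amino acid supply were called higher, beside 22.4 to 23.4% in the upper 3 level bins. Of 25 tested targets of ATF4, the factor of the integrated stress response, 15 were higher and 1 lower (median 0.14), and 13 higher with GC and length trends removed. PYCR1, which makes proline, had 105, 107 and 109 CPM at the medium dose and 90.2, 90.6 and 85.9 CPM in vehicle (0.27 ± 0.036, adjusted p = 1.34e-05), and PSAT1, of serine synthesis, had 91, 91.7 and 91.7 CPM at the medium dose and 78, 76 and 71.3 CPM in vehicle (0.28 ± 0.046). TRIB3, a pseudokinase that restrains ATF4, rose by 0.34 ± 0.052, GPT2, an alanine transaminase, by 0.33 ± 0.049 and the transporter subunit SLC3A2 by 0.39 ± 0.07. SLC7A1, the arginine and lysine transporter, was the member that fell (-0.20 ± 0.056). Of 15 aminoacyl-tRNA synthetases 5 rose and 0 fell, with MARS1 first (0.24 ± 0.034), beside 22.4 to 23.4% called higher in the upper 3 level bins. Of these synthetases 3 rose without replicate 3 of vehicle, and 2 without the filter on low counts or with only the groups compared.

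Cell division genes rose in part. Their lists stand beside 22.4 to 23.4% called higher and 13.8 to 20.7% called lower in the upper 3 level bins. DNA replication genes and other E2F targets rose in 23 of 36 members and fell in 1 (median 0.16), between 22 and 24 rises when any 1 library was left out. MCM3, of the replicative helicase, had 221, 216 and 222 CPM at the medium dose and 184, 176 and 174 CPM in vehicle (0.30 ± 0.035, adjusted p = 2.01e-06). MCM2, of the same helicase, had 242, 228 and 233 CPM at the medium dose and 198, 194 and 189 CPM in vehicle (0.28 ± 0.033, adjusted p = 3.34e-06). The libraries of the groups stood apart in both. POLD1, the catalytic subunit of polymerase delta, rose by 0.41 ± 0.054, and TK1 (0.31 ± 0.05) and TYMS (0.26 ± 0.043), both of thymidylate supply, rose as well. Of 32 mitotic genes 12 rose and 1 fell (median 0.06). The mitotic kinase gene CDK1 had 95.8, 100 and 101 CPM at the medium dose and 79.9, 74.3 and 70.3 CPM in vehicle (0.41 ± 0.054, adjusted p = 1.34e-05), and its activating phosphatase CDC25C rose by 0.35 ± 0.046.

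Energy and lipid metabolism moved less evenly. Its lists stand beside 22.4 to 23.4% called higher and 13.8 to 20.7% called lower in the upper 3 level bins. Of 21 glycolytic genes 11 rose and 0 fell: ENO1, the main enolase, had 1910, 1820 and 1860 CPM at the medium dose and 1590, 1470 and 1340 CPM in vehicle (0.35 ± 0.057, adjusted p = 0.000119), and the lactate exporter SLC16A3 rose by 0.58 ± 0.11. In fatty acid oxidation and among PPAR targets 7 of 23 rose and 1 fell, with ACADVL, the very long chain acyl-CoA dehydrogenase, at 174, 173 and 173 CPM at the medium dose and 148, 148 and 138 CPM in vehicle (0.26 ± 0.035, adjusted p = 1.34e-05). The rises were 4 without replicate 3 of the medium dose. Cholesterol genes were called in both directions, at shares near those of the upper level bins. Of 25 genes 4 fell, among them the sensor INSIG1 (-0.28 ± 0.04) and the enzymes MSMO1 (-0.30 ± 0.059) and SC5D (-0.23 ± 0.057), while 6 rose, ACAT2 among them (0.31 ± 0.06). Leaving out replicate 3 of vehicle gave 2 rises and 7 falls in this list, and leaving out replicate 3 of the medium dose gave 3 rises. Of 12 fatty acid synthesis genes 4 rose and 0 fell (2 rose without replicate 3 of the medium dose or replicate 2 of vehicle). Of 10 tested LXR targets 2 rose and 0 fell, shares near or below those of the upper level bins (1 to 4 rose when 1 library was left out). Among them the sterol exporter ABCG1 had 4.3, 4.44 and 4.57 CPM at the medium dose and 3.6, 2.73 and 3.17 CPM in vehicle (0.49 ± 0.12, adjusted p = 0.00279).

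**Figure D4:**
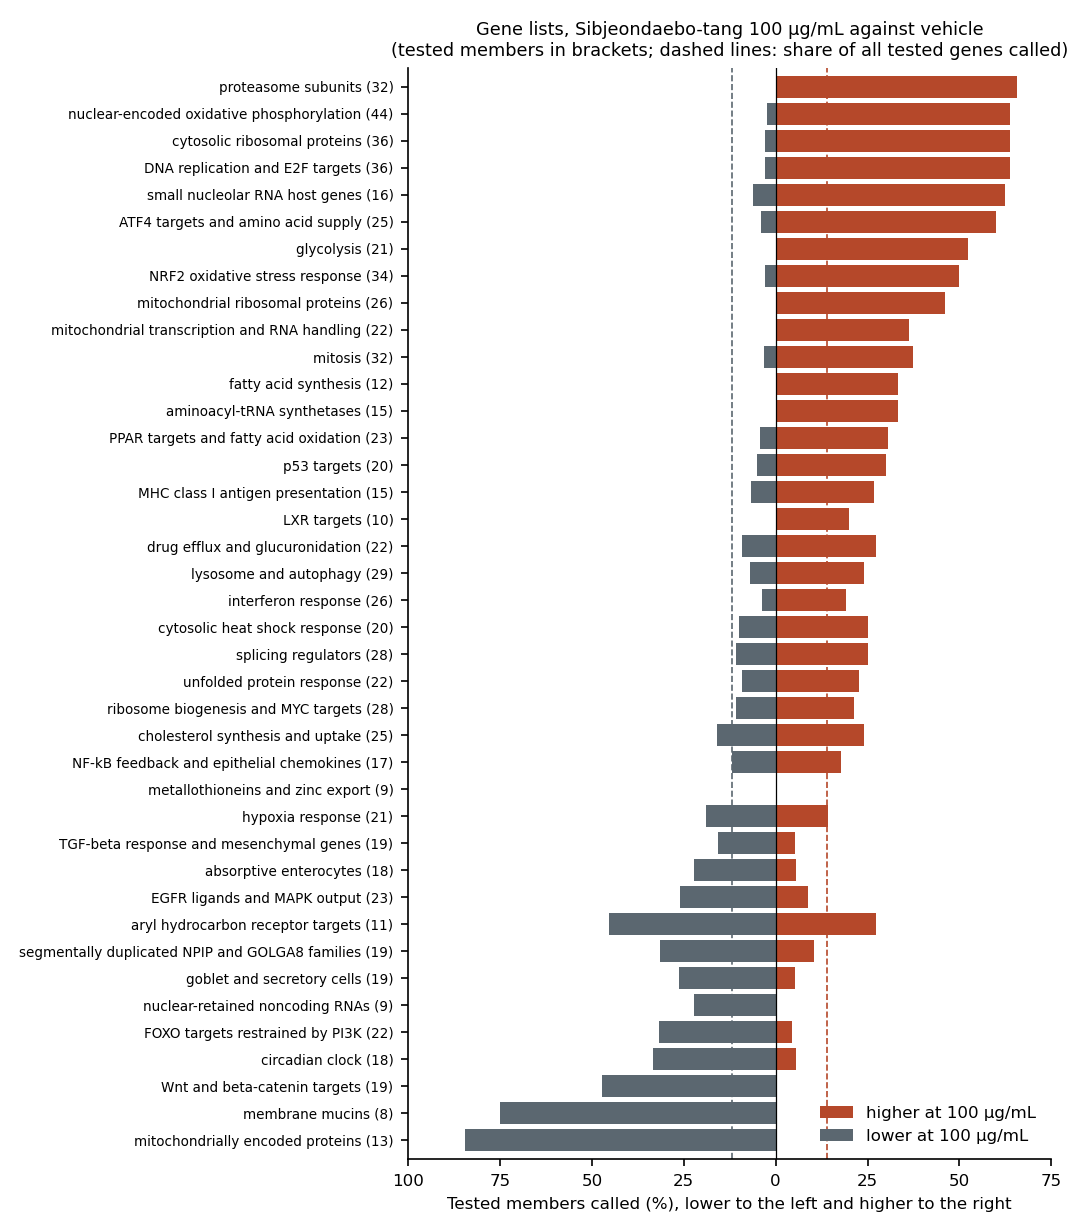
Share of the tested members of each gene list called higher (red, to the right) or lower (grey, to the left) at 100 µg/mL than in vehicle, with the number of tested members in brackets and dashed lines at 14.0% and 12.0%, the shares among all tested genes. Proteasome, nuclear respiratory, ribosomal protein and DNA replication lists lie at the top, and the Wnt, membrane mucin and mitochondrially encoded lists at the bottom.

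Wnt target genes fell in part. Of 19 tested members 9 fell and 0 rose (median -0.17), and 7 to 9 fell when any 1 library was left out. The upper 3 level bins had 13.8 to 20.7% called lower, and the bin of longest exons 21.6%. SOX9, a transcription factor of crypt progenitor cells (ENSG00000125398, chromosome 17, 72121020 to 72126420), had 144, 152 and 139 CPM at the medium dose, against 179, 211 and 194 CPM in vehicle (-0.43 ± 0.051, adjusted p = 4.13e-06). AXIN2, the scaffold that limits beta-catenin and a direct target of the pathway, had 73.4, 74.2 and 76.1 CPM at the medium dose and 93.4, 103 and 84.8 CPM in vehicle (-0.33 ± 0.047, adjusted p = 2.39e-05). No medium-dose library reached the lowest vehicle library in either gene. PROX1 (-0.45 ± 0.069), TCF7 (-0.31 ± 0.057) and the hyaluronan receptor CD44 (-0.22 ± 0.044) fell too.

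Mucins of the cell surface were lower in 6 of 8 tested genes, with a median of -0.59. The share called lower was 13.8 to 20.7% in the upper 3 level bins and 21.6% in the bin of longest exons. MUC17 (ENSG00000169876, chromosome 7, 101020072 to 101058745) had 8.87, 6.29 and 6.5 CPM at the medium dose, against 11.4, 13.5 and 13.3 CPM in vehicle (-0.82 ± 0.18, adjusted p = 0.00144). Its neighbour MUC12 had 8.05, 6.03 and 6.09 CPM at the medium dose and 9.29, 11.8 and 13.3 CPM in vehicle (-0.77 ± 0.15, adjusted p = 0.000447). MUC13 had 137, 130 and 130 CPM at the medium dose and 157, 163 and 149 CPM in vehicle (-0.24 ± 0.037, adjusted p = 6.84e-05). In all of these genes the groups stood apart. MUC3A (-0.51 ± 0.11) and MUC20 (-0.29 ± 0.056) fell too, and reads of the tandem repeats in these genes may be assigned among neighbours. Of 19 goblet and secretory cell genes 5 fell and 1 rose (7 fell with GC and length trends removed), beside 13.8 to 20.7% called lower in the upper 3 level bins. The gel-forming mucin MUC2 had 14.8, 15.3 and 15 CPM at the medium dose and 19.4, 24.2 and 27.4 CPM in vehicle (-0.65 ± 0.12), the lectin REG4 had 25.3, 26 and 28.3 CPM at the medium dose and 35.3, 34.2 and 39 CPM in vehicle (-0.44 ± 0.066), and AGR3, a disulfide isomerase of secretory cells, rose by 0.47 ± 0.086.

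Genes of absorptive enterocytes were called higher in 1 and lower in 4 of 18 members, shares near or below those of the upper level bins. They were lower in 1 without replicate 3 of vehicle and in 2 without replicate 2 or 3 of the medium dose. FABP1, the fatty acid carrier, had 2.47, 2.59 and 2.55 CPM at the medium dose and 1.4, 1.47 and 1.7 CPM in vehicle (0.74 ± 0.14, adjusted p = 0.000573). HNF4A, an enterocyte transcription factor, fell by 0.18 on the log2 scale (SE 0.042). SERPINA1, which the hepatocyte marker list holds and intestinal epithelium also expresses, had 359, 365 and 345 CPM at the medium dose and 447, 476 and 494 CPM in vehicle (-0.40 ± 0.052, adjusted p = 1.06e-05), while ALB, APOB and FGB were at 0 in both groups. The epithelial adhesion gene CDH1 had 460, 438 and 437 CPM at the medium dose and 491, 510 and 533 CPM in vehicle (-0.20 ± 0.043), and the tight junction gene CLDN4 had 374, 382 and 370 CPM at the medium dose and 307, 294 and 286 CPM in vehicle (0.34 ± 0.056).

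Growth factor signalling included both falls and rises. Its lists and that of the clock stand beside 13.8 to 20.7% called lower and 22.4 to 23.4% called higher in the upper 3 level bins. Median changes were -0.05 for EGFR ligands and MAPK output, -0.07 for FOXO targets and -0.10 for clock genes. Among EGFR ligands and MAPK output genes 6 of 23 fell and 2 rose (1 rose without replicate 2 of vehicle, and 8 fell with GC and length trends removed). When any 1 library was left out 4 or 5 fell. SPRY4, a feedback inhibitor of this pathway, had 66, 64.5 and 66.5 CPM at the medium dose and 83.2, 82.2 and 81.4 CPM in vehicle (-0.33 ± 0.05, adjusted p = 5.5e-05), and the receptor gene EGFR had 184, 165 and 173 CPM at the medium dose and 210, 228 and 205 CPM in vehicle (-0.30 ± 0.072). Genes that PI3K signalling holds down through FOXO factors fell in 7 of 22 members and rose in 1, led by BCL6 (-0.36 ± 0.072) and CITED2 (-0.37 ± 0.091), but fell in 4 when replicate 2 or 3 of the medium dose or replicate 3 of vehicle was left out. Of 18 circadian clock genes 6 fell and 1 rose, and 4 to 7 fell when 1 library was left out. PER2, a repressor of the clock, had 20.2, 18.7 and 17.8 CPM at the medium dose and 25, 24.1 and 26.6 CPM in vehicle (-0.42 ± 0.073, adjusted p = 0.000208), and BHLHE40 fell to 9.33, 7.61 and 9.16 CPM at the medium dose, against 11.5, 11.8 and 12.8 CPM in vehicle. BMAL1, the activator opposed by PER2, was the gene that rose (0.24 ± 0.075, adjusted p = 0.0218), but not without replicate 1 or 3 of the medium dose or replicate 1 or 2 of vehicle (adjusted p = 0.0568 to 0.0917).

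Inflammatory and stress lists each had calls in both directions, beside 14.0% higher and 12.0% lower over all genes. The upper 3 level bins had 22.4 to 23.4% called higher and 13.8 to 20.7% lower. Of 17 tested NF-kB genes 3 rose and 2 fell: the chemokine CXCL8 had 7.41, 7.03 and 6.79 CPM at the medium dose and 5.03, 5.55 and 5.08 CPM in vehicle (0.44 ± 0.083, adjusted p = 0.000451). Interferon genes rose in 5 of 26 members and fell in 1, led by STAT2 (0.25 ± 0.049), and genes of MHC class I presentation rose in 4 of 15 and fell in 1. Targets of p53 rose in 6 of 20 members and fell in 1. AEN, an apoptosis-enhancing nuclease, rose (0.39 ± 0.06), and PPM1D, the phosphatase that restrains p53, fell (-0.27 ± 0.044). Hypoxia genes rose in 3 and fell in 4 of 21 members, HIF1A among the falls (-0.25 ± 0.056), lysosome genes rose in 7 and fell in 2 of 29, and splicing regulators rose in 7 and fell in 3 of 28. Without replicate 3 of vehicle, 2 interferon, 2 MHC class I, 3 p53, 2 lysosome and 0 splicing genes rose, and 1 NF-kB, 1 lysosome and 2 hypoxia genes fell. Without replicate 3 of the medium dose, 3 interferon and 2 splicing genes rose, and 0 NF-kB and 2 hypoxia genes fell. Without replicate 2 of the medium dose, 4 lysosome and 2 splicing genes rose and 2 hypoxia genes fell, and without replicate 2 of vehicle 4 splicing genes rose and 0 NF-kB genes fell. Without replicate 1 of vehicle 1 NF-kB gene fell. With only the groups compared 2 splicing genes rose and 1 NF-kB gene fell, and with GC and length trends removed 4 lysosome genes fell. TGF-beta and mesenchymal genes rose in 1 and fell in 3 of 19 members. KCNQ1OT1, a long nuclear RNA antisense to KCNQ1, had 55.7, 51.3 and 48.3 CPM at the medium dose and 77.8, 80.3 and 86.6 CPM in vehicle (-0.66 ± 0.067, adjusted p = 3.8e-07).

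The largest changes are given for called genes with a standard name, an average log2 CPM of at least 2 and groups that did not overlap. They include transcripts with near-identical copies or overlapping neighbours, among which the counting can split reads, and genes without such copies. Among the top rises were RN7SL2 and RN7SL1, near-identical RNA components of the signal recognition particle. RN7SL2 had 13.2, 41.1 and 21.5 CPM at the medium dose and 9.2, 6.21 and 2.84 CPM in vehicle (2.04 ± 0.64, adjusted p = 0.0201), and without replicate 2 of the medium dose the change was 1.51 (adjusted p = 0.121). Both genes also lost their calls without replicate 2 or 3 of vehicle, RN7SL2 with adjusted p = 0.0602 and 0.0982. ZACN, a zinc-activated ion channel, had 10.3, 12.6 and 8.42 CPM at the medium dose and 7.23, 0.115 and 1.77 CPM in vehicle (1.80 ± 0.54), and without replicate 2 or 3 of vehicle the adjusted p was 0.0977 and 0.0753. The other 12 of the 15 largest rises kept their calls when any 1 library was left out. PXN-AS1 (1.07 ± 0.22) is antisense to PXN, RAB43 (1.04 ± 0.21) encodes a Golgi GTPase, and ATP6V1G2-DDX39B (0.99 ± 0.18) is a read-through of neighbours. TMEM160, a mitochondrial membrane protein gene, had 11.3, 12.2 and 13.6 CPM at the medium dose and 7.7, 6.21 and 5.81 CPM in vehicle (0.91 ± 0.21, adjusted p = 0.00235). RPS21, of the small ribosomal subunit, had 302, 297 and 333 CPM at the medium dose and 210, 186 and 152 CPM in vehicle (0.77 ± 0.15). Further rises were the ribosomal protein pseudogene RPL7AP6 (0.90 ± 0.17), the adjacent genes ANTKMT (0.89 ± 0.16) and CCDC78 (0.82 ± 0.11), MAMDC4 (0.80 ± 0.12), the glycosyltransferase gene MGAT2 (0.79 ± 0.14), the anaphase-promoting complex gene ANAPC11 (0.77 ± 0.15) and SPRN (0.73 ± 0.15).

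Of the 15 largest falls by the same criteria, 3 trace to mitochondrial sequence, the gene MT-ND6 and the nuclear copies MTND4P12 (-1.37 ± 0.30) and MTATP6P1 (-0.90 ± 0.20), and 4 to the duplicated NPIPB family on chromosome 16. NPIPB4 had 39.8, 42 and 35.7 CPM at the medium dose and 58.9, 64.8 and 85.3 CPM in vehicle (-0.83 ± 0.095, adjusted p = 2.01e-06), and NPIPB5 had 110, 98.7 and 93 CPM at the medium dose and 142, 170 and 200 CPM in vehicle (-0.76 ± 0.12). Replicate 3 of vehicle was the highest library in both. NPIPB11 fell by a like amount (-0.73 ± 0.11), and NPIPB13 (-1.05 ± 0.27) lost its call without replicate 3 of vehicle (-0.76, adjusted p = 0.071), as did ZNG1F (-0.22, adjusted p = 0.578, against -0.71 ± 0.26 with all libraries). The call of ZNG1F was also lost without any 1 of the medium-dose libraries (adjusted p = 0.0727 to 0.0995). It was lost too with GC and length trends removed (adjusted p = 0.0674) and with only the groups compared (adjusted p = 0.0647). The family as a whole was not uniform, since NPIPA1, chosen after its values were seen, rose (0.37 ± 0.065).

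The remaining large falls include single-copy genes. CD55, which protects the cell surface from complement (ENSG00000196352, chromosome 1, 207321376 to 207386804), had 52.6, 51.1 and 47.9 CPM at the medium dose, against 75.8, 94 and 70.7 CPM in vehicle (-0.67 ± 0.07, adjusted p = 6.73e-07). UCA1, a long noncoding RNA named for urothelial cancer, had 20.4, 20.4 and 19.9 CPM at the medium dose and 28.7, 31.9 and 37.2 CPM in vehicle (-0.69 ± 0.092, adjusted p = 1.34e-05). AKAP12, a scaffold for protein kinases A and C, had 9.38, 8.46 and 8.26 CPM at the medium dose and 14.5, 16.2 and 11.9 CPM in vehicle (-0.71 ± 0.11, adjusted p = 6.84e-05). All vehicle libraries exceeded all medium-dose libraries in these genes. RAC1P2, a RAC1 pseudogene (-0.92 ± 0.20), and IGFL2-AS1 (-0.70 ± 0.11) complete this set together with MUC17 and MUC12. Outside these criteria, MT-ATP8 was called lower with groups that overlapped, at 329, 498 and 194 CPM at the medium dose and 468, 689 and 752 CPM in vehicle (-0.90 ± 0.28). The unnamed gene ENSG00000256646, described further on, was called lower by more than any of the 15 (-2.83 ± 0.50, adjusted p = 0.00023). Further genes known only by an identifier, with changes as large as some of those named, are not described.

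Set against the low dose, few genes of the medium dose passed the test. The comparison called 5 genes higher (0.0287%) and 12 lower (0.0688%) of 17432, with 1744 genes at an unadjusted p under 0.05. The split depended on the method, with 64 higher and 44 lower by DESeq2, 77 higher and 163 lower without the filter on low counts, 9 higher and 31 lower with GC and length trends removed, and 5 higher and 2 lower with only the groups compared. Without replicate 1 of the low dose 20 genes were called, and 4 without its replicate 2, 5 without its replicate 3, and 4, 11 and 3 without replicates 1, 2 and 3 of the medium dose. Over the 11001 genes whose average log2 CPM reached 2, the 95% interval of the medium-minus-low difference had a median half-width of 0.113 on the log2 scale, and for 98.7% of them it lay within 0.5 of 0. Of the 34 NRF2 genes 3 were higher and 0 lower (median 0.13). AKR1B10 had 131, 125 and 122 CPM at the medium dose, against 99.3, 89.7 and 89.3 CPM at the low dose (0.44 ± 0.05, adjusted p = 3.4e-05). ALDH3A1 had 33.8, 32.8 and 32.9 CPM at the medium dose, against 24.7, 26.5 and 23.8 CPM at the low dose (0.41 ± 0.048, adjusted p = 3.92e-05). In vehicle AKR1B10 averaged 98.5 ± 6.31 CPM and ALDH3A1 27.7 ± 0.66 CPM (SD, n = 3), near their low-dose levels, though low dose and vehicle were not tested against each other. AKR1C2 (0.42 ± 0.079) and POLR1E, a subunit of RNA polymerase I (0.26 ± 0.049), also passed. AKR1C2 lost its call without replicate 1 or 3 of the medium dose or any low-dose library (adjusted p up to 0.182), and POLR1E without replicate 1 or 3 of the medium dose or replicate 2 or 3 of the low dose (up to 0.247).

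Lower genes at the medium dose than at the low dose were of several shapes over the dose series. TP53INP2, an autophagy regulator, averaged 20.3, 16.6, 13.2 and 9.87 CPM in vehicle and at 20, 100 and 500 µg/mL, a steady decline (medium minus low -0.33 ± 0.066, adjusted p = 0.0432). IGFL2-AS1 averaged 9.44, 9.14, 5.86 and 4.01 CPM in the same order (-0.65 ± 0.11, adjusted p = 0.00827). PGGHG, a glucosidase of hydroxylysine sugars in collagen, averaged 67.8, 139, 112 and 64.7 CPM, so that low and medium doses lay above both vehicle and high dose (-0.32 ± 0.066, adjusted p = 0.0473). ACSS2, the acetate-activating enzyme, averaged 25.7, 32.3, 26.0 and 15.5 CPM (-0.31 ± 0.062, adjusted p = 0.0432). The call of TP53INP2 was lost without any 1 of the 6 libraries (adjusted p up to 0.177), that of IGFL2-AS1 without replicate 3 of the medium dose or replicate 2 of the low dose (up to 0.132), that of ACSS2 without any 1 of the 6 (up to 0.214) and that of PGGHG without any 1 except replicate 1 of the low dose (up to 0.327). The others called lower were TMEM74B, CATSPER2, H2AC6, GOLGA8A, PABPC1L, TNFSF15, FER1L4 and the gene of the next paragraph, and EFHD2 completed the higher ones.

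An unnamed protein-coding gene, chosen after its values were seen, had the largest difference among the genes called between these doses. ENSG00000256646 (chromosome 7, 42909273 to 42932174) had 0.771, 2.96 and 0.022 CPM at the medium dose, against 10.2, 10.2 and 7.52 CPM at the low dose, a log2 difference of -2.96 ± 0.48 (adjusted p = 0.0061). It had 9.90, 7.64 and 7.91 CPM in vehicle, 9.03, 10.5 and 12.1 CPM at the high dose and 5.18, 8.85 and 7.92 CPM with Palmul-tang. It overlaps C7orf25 and the proteasome subunit gene PSMA2 on the same strand. C7orf25 had 9.72, 10.3 and 12.1 CPM at the medium dose. Its levels were 5.1, 5.57 and 7.4 CPM at the low dose and 6.05, 7.13 and 7.11 CPM in vehicle. The sum of ENSG00000256646 and C7orf25, which leaves out PSMA2, was 10.5, 13.3 and 12.2 CPM at the medium dose. This sum was 15.3, 15.7 and 14.9 CPM at the low dose and 15.9, 14.8 and 15.0 CPM in vehicle. How estimated counts were divided between the overlapping genes was not tested.

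**Figure D5:**
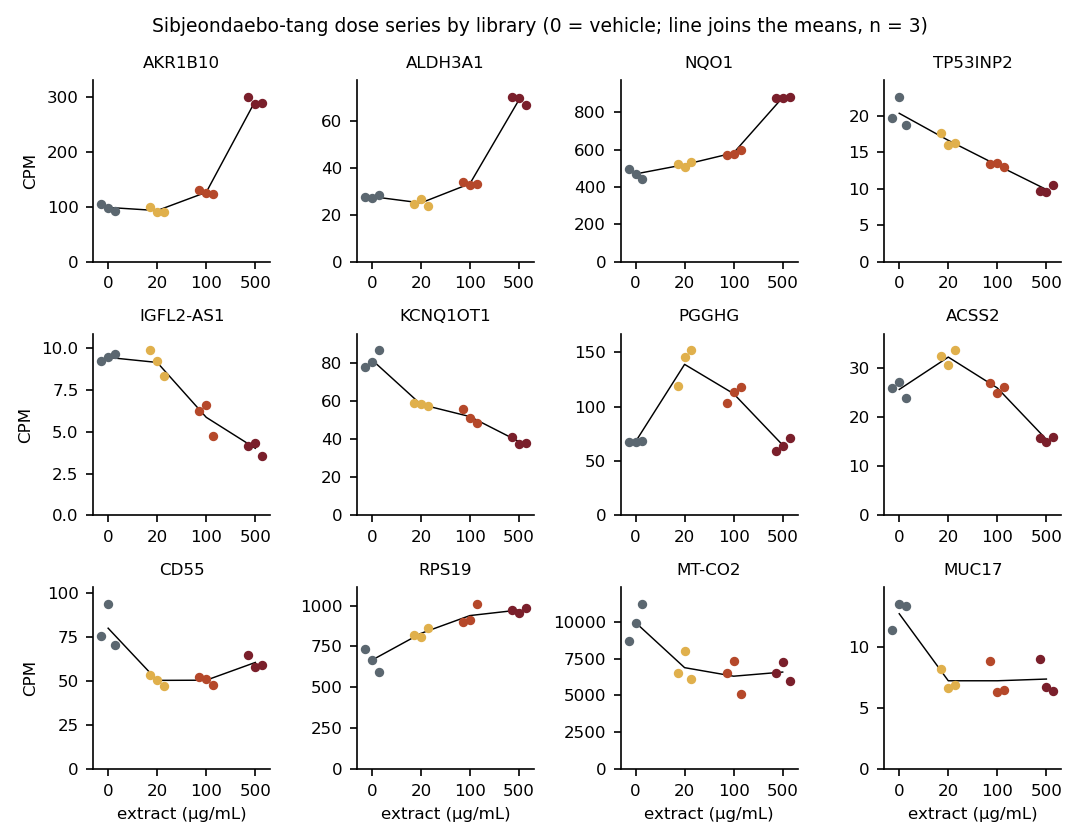
CPM per library (dots) for 12 genes in vehicle (0) and at 20, 100 and 500 µg/mL, with a line through the means (n = 3 each); doses are spaced evenly, not to scale. AKR1B10, ALDH3A1 and NQO1 climb most between 100 and 500 µg/mL, TP53INP2, IGFL2-AS1 and KCNQ1OT1 decline, PGGHG and ACSS2 peak at 20 µg/mL, and CD55, RPS19, MT-CO2 and MUC17 are nearer at 20 µg/mL to their level at 100 µg/mL than to that in vehicle.

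Against the medium dose, the high dose moved far more genes, 1220 higher (7.00%) and 1274 lower (7.31%), 2494 in all and 1655 without replicate 1 of the high dose. Of the NRF2 genes 31 of 34 were higher and 0 lower (median 0.55), the largest share called higher among the lists compared. AKR1C2 had 47.1, 47.9 and 50.6 CPM at the high dose, against 13.9, 12.6 and 12.9 CPM at the medium dose (1.89 ± 0.07, adjusted p = 7.91e-17). AKR1B10 had 300, 286 and 288 CPM at the high dose, against 131, 125 and 122 CPM at the medium dose (1.21 ± 0.049). GCLC (0.64 ± 0.046), SLC7A11 (0.65 ± 0.041) and FTH1 (0.41 ± 0.048), which did not rise between vehicle and the medium dose, rose between the medium and the high dose. The amino acid transporter SLC38A4 rose by 1.24 ± 0.12, whereas the urea transporter SLC14A1 (-1.17 ± 0.14), C7orf25 (-1.03 ± 0.19), LINC00342 (-0.93 ± 0.12) and GOLGA8B (-0.81 ± 0.093) had the largest falls among named genes whose groups did not overlap. The overlapping ENSG00000256646 was called higher at this step (3.15 ± 0.48), and the sum of it and C7orf25 was 15.2, 15.5 and 16.7 CPM at the high dose, against 10.5, 13.3 and 12.2 CPM at the medium dose.

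Other lists divided between the dose steps. Ribosome biogenesis genes, with 6 of 28 higher at the medium dose than in vehicle, had 23 higher and 0 lower at the high than at the medium dose, and heat shock genes 14 of 20 higher and 0 lower. Nuclear respiratory genes had 2 of 44, and cytosolic ribosomal proteins 1 of 36, higher and 0 lower at that step, and the 13 mitochondrially encoded genes had a median change of 0.02. The Wnt list had 2 higher and 2 lower of 19, the membrane mucins 0 higher and 3 lower of 8. The steps share the medium-dose libraries, so the calls are not independent, and whether the steps differ for a given list was not tested.

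At 100 µg/mL, Sibjeondaebo-tang and Palmul-tang, which holds the same herbs without astragalus and cinnamon, differed in 1 gene. Of 17432 genes 0 were higher (0%) and 1 lower (0.00574%) with Sibjeondaebo-tang, at 1078 genes with an unadjusted p under 0.05 (DESeq2 called 0 higher and 2 lower). GOLGA8A, a golgin of a duplicated family, had 81.8, 80.7 and 83 CPM with Sibjeondaebo-tang, against 100, 106 and 98.8 CPM with Palmul-tang (-0.31 ± 0.039, adjusted p = 0.000241), while it had 86.2, 84.3 and 81.5 CPM in vehicle. A difference that misses the threshold does not show that the extracts act alike. The 95% interval of the difference had a median half-width of 0.114 on the log2 scale and lay within 0.5 of 0 for 99.0% of the same 11001 genes. For AKR1B10 the difference was 0.07 ± 0.05, with an interval of -0.04 to 0.17, and for NQO1 0.02 ± 0.047, with an interval of -0.08 to 0.11. The median difference over the 34 NRF2 genes was 0.02, and over the 13 mitochondrially encoded genes -0.01. SOX9 averaged 145 ± 6.9 CPM with Sibjeondaebo-tang and 152 CPM with Palmul-tang, and MUC17 averaged 7.22 ± 1.43 CPM with Sibjeondaebo-tang and 8.12 CPM with Palmul-tang (SD of the Sibjeondaebo-tang group, n = 3).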

How the data were processed

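Counts came from a table deposited by the authors with a column for each sample code. They are expected counts per gene from RSEM, and 9.45% of the values were not whole. The submitters' processing notes name FastQC 0.11.9, Trim Galore 0.6.5, STAR 2.7.3a, RSEM 1.3.3 and hg38, and the labels' protocols state stranded libraries. The annotation release and RSEM's strand setting are not given in the sources used here. Of 273 columns, 33 carry the codes of these samples and 240 were not used.

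The deposited expected counts were rounded and tested with edgeR 4.0.16 (quasi-likelihood, TMM scaling, R 4.3.3) in 1 fit of all 33 libraries and their groups, so that the spread is shared (20 residual and 7 prior degrees of freedom, common biological coefficient of variation 0.0489). filterByExpr with a minimum count of 10 kept 17432 of 60675 genes. P-values were adjusted over all tested genes by the Benjamini-Hochberg method, and calls use an adjusted p under 0.05. Standard errors follow from the log2 change and its F statistic, and CPM values use TMM-scaled library sizes. Totals ran from 28558865 to 49068018 counts per library. Counting error weighs most in genes of low level, among them named genes such as MUC17, CXCL8 and FABP1. The script was tested on simulated data.

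The tests, lists, members and named genes were chosen with earlier results of these data known. Named genes are, per list, at most 5 members with the smallest p, then the 15 largest called rises and falls against vehicle, and 4 each way in the other comparisons, among genes that have a standard name, reach 2 in average log2 CPM and show no overlap between the groups. Others, such as members that moved against their list, were chosen after their values were seen. Alternatives were DESeq2 1.42.0, other scaling, no filter, only the groups compared, a replicate block, GC and length trends removed, thinning to the depth of the shallowest library and leaving out each library in turn. Some single-gene results are not reported here.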

Additional observations from a re-analysis of the deposited data

How the results depend on the processing

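For the medium dose against vehicle, DESeq2 called 4356 genes, RLE scaling 4535 and the fit of the 2 groups alone 3774, each within 1.5 times of 4538, and leaving out 1 library gave 2886 to 4533. The medium dose against the low dose depended more on the setting: 17 genes were called, against 108 with DESeq2, 40 with GC and length trends removed, 240 without the filter on low counts, 7 with only the groups compared and 3 to 20 without 1 library. The high dose against the medium dose gave 1655 to 2019 calls without 1 library, against 2494. For Sibjeondaebo-tang against Palmul-tang, DESeq2 called 2 genes, the fit without the filter 124, that of the groups alone 3 and fits without 1 library 1 to 3, against 1. The split of calls between the directions at the medium against the low dose is given with that comparison. The cause of these differences was not tested. Deviations of same-numbered libraries of the medium dose and vehicle had correlations of -0.0134, 0.0551 and -0.0253, and those of unlike numbers were at most 0.0499. Such values show no pairing by the titles' numbers, but with 3 libraries per group they cannot exclude it. Between high and medium dose the same-number correlations were 0.0935, 0.141 and 0.0465, and those of unlike numbers at most 0.0329. Between medium and low dose they were -0.02, 0.0925 and 0.152, and those of unlike numbers at most 0.0634. Libraries of different doses may thus be paired by number, which the main tests did not use. With a replicate block 4962 genes were called against vehicle, 85 against the low dose, 2871 between high and medium dose and 3 against Palmul-tang.

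The share of mitochondrially encoded counts differed by -1.58 to -2.77 percentage points when 1 library was left out. Uncalled changes against vehicle changed sign when 1 library was left out, with ranges of -0.0241 to 0.0965 for AKR1C1, -0.044 to 0.0713 for FTL and -0.078 to 0.0204 for SLC7A11. With GC and length trends removed SLC7A11 was at 0.037. Depth limits genes of low level, whose intervals are wide.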
